A study of Mus musculus with 12 samples.

Results

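The 10 genes described here encode the core of the desmosome in mouse epidermis. They are the desmogleins Dsg1a, Dsg1b, Dsg2 and Dsg3, the desmocollins Dsc1, Dsc2 and Dsc3, and the plaque proteins desmoplakin (Dsp), plakophilin 1 (Pkp1) and plakoglobin (Jup). They were picked by symbol, by a rule that takes in no measured value, though with earlier results of these data known. Each was found under 1 of the 55416 Ensembl gene identifiers that every library's table lists. All 10 passed the filter on low counts, which left 17130 genes to be tested. Bulk mRNA was sequenced from ear skin of C57BL/6 mice, 8 to 12 weeks of age, in 12 libraries that form 4 groups of 3, all from day 6. The groups IMQ+GW3965, IMQ+Troglitazone and IMQ+Veh were challenged with Aldara, a cream of 5% imiquimod, at 20.8 mg per day on the dorsal ear. Imiquimod activates Toll-like receptor 7 and is used to provoke psoriasis-like skin inflammation in mice. In IMQ+GW3965, mice also received 20 mg/kg per day of GW3965, a synthetic ligand that activates LXR, the oxysterol-sensing nuclear receptors, by intraperitoneal injection from day 3. Troglitazone, an agonist of the lipid-sensing receptor PPARγ, was given in the same way at 150 mg/kg in IMQ+Troglitazone. DMSO was the vehicle of both drugs, and it was injected alone in the Veh groups. UTX+Veh names no imiquimod, and what UTX stands for is not written out. Nothing in the labels says whether a group's 3 libraries are 3 animals, so each p-value reflects library-to-library spread, part of which may be technical.

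Desmosomes are spot-like junctions that tie the keratin filaments of neighbouring cells together. Desmogleins and desmocollins are cadherins that span the membrane and bind each other in the gap between the cells. On the inside, plakoglobin and plakophilins bind the cadherin tails, and desmoplakin links them to keratin. In the epidermis the cadherins are layered: Dsg3, Dsc3 and Dsc2 belong mainly to the lower layers, Dsg1 and Dsc1 mainly to the differentiating upper layers, and Dsg2 is the widely expressed form of simple epithelia, heart and hair follicle. The mouse carries several Dsg1 genes in place of the single human DSG1.

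Levels are read counts scaled to library size by TMM (CPM), averages carry the SD over 3 libraries, and levels of different genes are compared only per kilobase of effective length (CPM per kb). Fold changes are log2 values ± SE from edgeR's quasi-likelihood test, and calls used a threshold of 0.05 on p-values adjusted by Benjamini-Hochberg over all genes tested. Libraries held 18242074 to 25641602 expected counts. In IMQ+GW3965 replicate 3, 11.62% of counts fell in the single feature ENSMUSG00000119584, which held 0.045% to 0.138% of the other libraries. The summed level of 8 basal keratinocyte markers, Krt5 and Krt14 among them, was at least 11474 CPM in every library. In bulk tissue, fewer cells of a type and less RNA per cell cannot be told apart.

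Within UTX+Veh skin the mean levels of the plaque genes stood above those of the cadherins. Mean levels per kb ran in the order Dsp (421 CPM per kb), Jup (359.5), Pkp1 (314), Dsg1a (290.4), Dsc3 (211), Dsc1 (67.9), Dsg1b (36.8), Dsg3 (23.1), Dsg2 (6.93) and Dsc2 (1.6 CPM per kb). Only Pkp1 and Dsg1a overlapped among neighbours in that order. IMQ+Veh kept the plaque genes at the top, at 569 CPM per kb for Jup, 513 for Dsp and 441 for Pkp1, with neighbours overlapping. Below them, Dsc1, Dsc3 and Dsg1a were level, at 183, 179 and 177 CPM per kb, and Dsg1b (95.9) overlapped with Dsg3 (86.7). The 2 scarcest cadherins changed places: Dsc2 spanned 8.76 to 15.5 CPM per kb in IMQ+Veh against 1.52 to 1.65 in UTX+Veh, while Dsg2 spanned 3.32 to 3.8 in IMQ+Veh against 6.79 to 7.07 in UTX+Veh. In IMQ+GW3965 and IMQ+Troglitazone, Dsg1a was again the highest cadherin, at 242 and 278 CPM per kb, and its range overlapped with that of Dsc1 in IMQ+Troglitazone only.

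**Figure D1:**
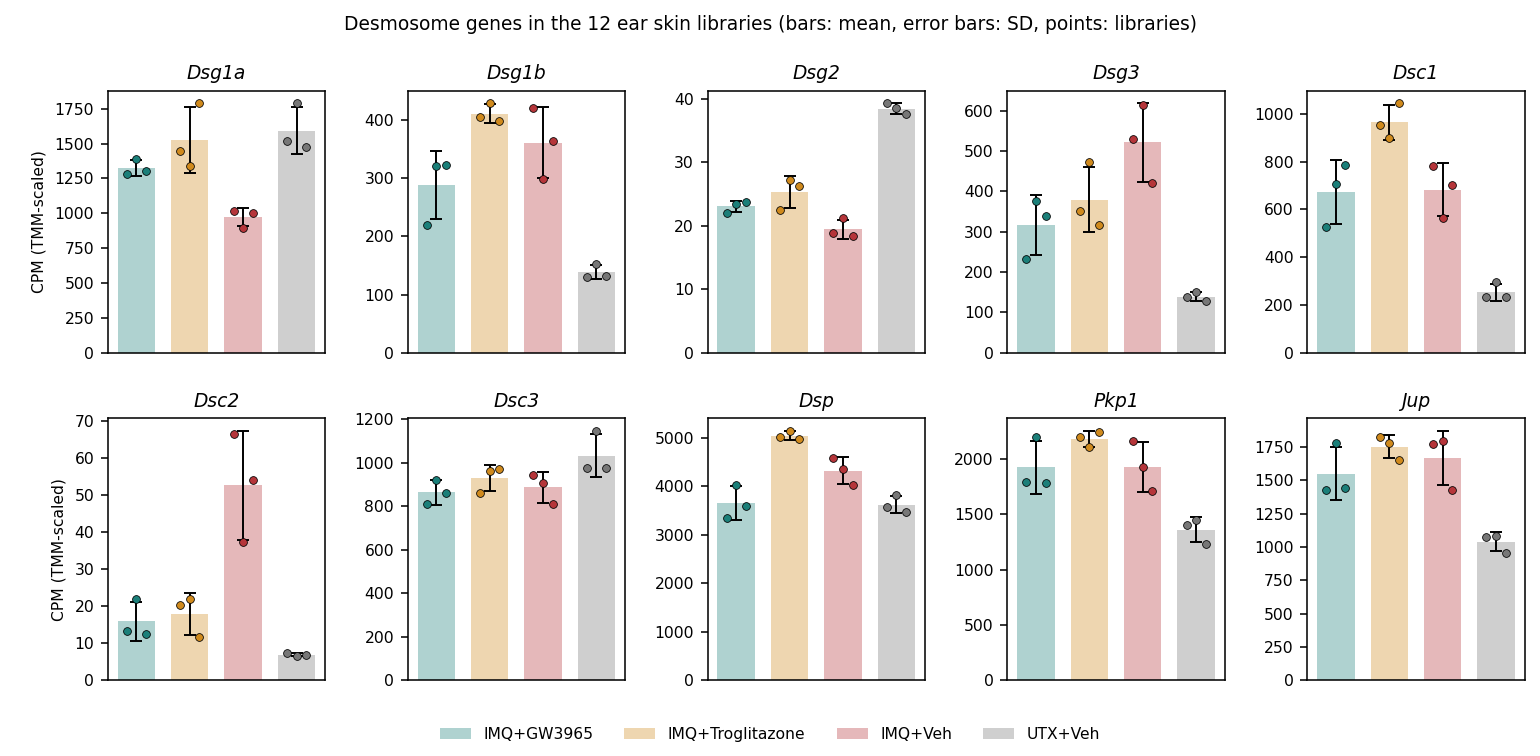
TMM-scaled CPM (y axis, starting at 0, a separate scale for each gene) of the 10 desmosome genes in IMQ+GW3965, IMQ+Troglitazone, IMQ+Veh and UTX+Veh ear skin; bars are means, error bars SD and points the 3 libraries of a group. Dsg3 and Dsc2 peaked in IMQ+Veh, at means of 521 and 52.6 CPM, where Dsg1a was at its lowest mean of 973 CPM.

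Imiquimod skin given vehicle was set against UTX+Veh skin to ask how the desmosome genes differ in the inflamed ear. Of the 10 genes, 6 rose (Dsg1b, Dsg3, Dsc1, Dsc2 and, by TMM scaling but not on the deposited TPM, Pkp1 and Jup), 2 fell (Dsg1a and Dsg2), and Dsc3 and Dsp did not pass the test. The background was high, since 61.9% of all genes tested were called in this comparison, 33.0% higher and 28.9% lower. The groups did not overlap for any of the 10 genes, as for 66.8% of all genes tested. The members' median log2 fold change was 0.59, against 0.01 over all genes tested, and their median absolute change was 0.85 against 0.60. The largest change was that of Dsc2, 7.61-fold.

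Among the desmogleins, the 2 related genes Dsg1a and Dsg1b went opposite ways. Dsg1a had 1019.9, 898 and 1003 CPM in IMQ+Veh, against 1518, 1788 and 1474 CPM in UTX+Veh. It fell in IMQ+Veh, with a log2 fold change of -0.71 ± 0.12 (edgeR, adjusted p = 0.000468). Dsg1b had 421, 298 and 364 CPM in IMQ+Veh, against 131, 152 and 133 CPM in UTX+Veh. Every IMQ+Veh library was above every UTX+Veh library, and Dsg1b rose 2.6-fold (log2 1.38 ± 0.16, edgeR, adjusted p = 2.36e-05). The level of Dsg1a per kb was 1.66 to 2.07 times that of Dsg1b in IMQ+Veh, against 7.62 to 8.06 times in UTX+Veh. Added up, Dsg1a and Dsg1b came to 1334 ± 126 CPM in IMQ+Veh and 1732 ± 181 CPM in UTX+Veh. Their transcripts in GENCODE M21 share 1459 of the 5612 different 75-base stretches of Dsg1a (26.0%) and 37.5% of those of Dsg1b, so that the division of reads between them depends on RSEM's estimate, and Dsg1c shares 12.8% of those of Dsg1a. Dsg1c also shares 16.1% of those of Dsg1b. No such stretch was shared between Dsg1a, Dsg1b or Dsg1c and any of the remaining desmosomal cadherins.

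Dsg3, the desmoglein of basal keratinocytes and the target of autoantibodies in pemphigus vulgaris, rose the most of the desmogleins. It had 531, 613 and 419 CPM in IMQ+Veh, against 138, 149.9 and 129 CPM in UTX+Veh, a log2 fold change of 1.91 ± 0.20 (edgeR, adjusted p = 1.56e-05). All 3 IMQ+Veh libraries lay far above the UTX+Veh libraries. Dsg2 had 18.8, 21.2 and 18.4 CPM in IMQ+Veh, against 39.3, 38.5 and 37.6 CPM in UTX+Veh. It fell 1.97-fold (log2 -0.98 ± 0.10, edgeR, adjusted p = 8.46e-06), with little spread within either group.

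The desmocollins, which pair with the desmogleins, split as well. Dsc1, the desmocollin of the upper layers, had 783, 564 and 703 CPM in IMQ+Veh, against 234, 295 and 233 CPM in UTX+Veh. The groups stood apart, and Dsc1 rose 2.69-fold (log2 1.43 ± 0.17, edgeR, adjusted p = 2.89e-05). Dsc2 had 66.5, 37.3 and 54.1 CPM in IMQ+Veh, against 7.27, 6.52 and 6.92 CPM in UTX+Veh. The IMQ+Veh libraries were all higher but spread widely, with replicate 2 the lowest, and the log2 fold change was 2.93 ± 0.30 (edgeR, adjusted p = 1.09e-05). Dsc3, the main desmocollin of the basal layer, had 943, 909.6 and 809 CPM in IMQ+Veh, against 976, 1148 and 978 CPM in UTX+Veh. Its log2 fold change of -0.22 ± 0.10 did not pass the test (edgeR, adjusted p = 0.0839), although the groups did not overlap.

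The 3 plaque genes had log2 fold changes of 0.25 to 0.68 by TMM scaling and of -0.26 to 0.11 on the deposited TPM. Jup, which encodes the plakoglobin shared by desmosomes and adherens junctions, had 1771, 1798 and 1431 CPM in IMQ+Veh, against 1075, 1084 and 958 CPM in UTX+Veh. Pkp1, the plakophilin of the differentiated layers, had 2157, 1922 and 1705 CPM in IMQ+Veh, against 1406, 1445 and 1229.7 CPM in UTX+Veh. In both genes the groups stood apart, and by TMM scaling both rose, Jup by 0.68 ± 0.12 on the log2 scale (edgeR, adjusted p = 0.000591) and Pkp1 by 0.50 ± 0.12 (adjusted p = 0.00403), whereas on the deposited TPM Jup was at 0.11 and Pkp1 at -0.058, neither called. Dsp, the keratin anchor, had 4575, 4351 and 4022 CPM in IMQ+Veh, against 3584, 3811 and 3474 CPM in UTX+Veh. Its log2 fold change was 0.25 ± 0.11 (edgeR, adjusted p = 0.0625), it was called higher without IMQ+Veh replicate 3 (adjusted p = 0.0298), and on TPM it was -0.26 and called lower (adjusted p = 0.0491). The median of all genes was -0.40 on the TPM scale in this comparison, and relative to that median Dsp stood at 0.14, Pkp1 at 0.34 and Jup at 0.51. The cadherin calls other than that of Dsc3, which was called lower on TPM, were the same on both scales.

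The bases before the start sites of Jup and Dsp are shown because both genes are among the 3 highest per kb in every group, while by TMM scaling Jup was called in this comparison and Dsp was not. They are the 250 bases upstream of the RefSeq start (GRCm38.p6), chr11:100397791-100398040 on the minus strand for Jup and chr13:38151044-38151293 on the plus strand for Dsp, and capitals mark the Sp-type GC box GGGCGG on either strand.
Jup: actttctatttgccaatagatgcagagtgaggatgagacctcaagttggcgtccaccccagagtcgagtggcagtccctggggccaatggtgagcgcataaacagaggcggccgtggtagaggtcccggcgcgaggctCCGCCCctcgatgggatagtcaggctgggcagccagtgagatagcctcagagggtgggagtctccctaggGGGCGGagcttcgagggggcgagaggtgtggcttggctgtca
Dsp: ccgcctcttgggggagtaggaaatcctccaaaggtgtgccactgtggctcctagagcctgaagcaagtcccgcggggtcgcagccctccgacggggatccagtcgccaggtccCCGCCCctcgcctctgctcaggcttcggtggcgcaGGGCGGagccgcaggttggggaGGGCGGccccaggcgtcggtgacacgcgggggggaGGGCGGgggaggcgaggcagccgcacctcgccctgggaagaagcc
The GC box was found 2 times before Jup and 4 times before Dsp, and 32.7% of the 32851 RefSeq windows of the same length held it on either strand. No match was found in either window for the AP-1 motif TGANTCA (in 6.75% of all windows), the grainyhead-like motif AACCGGTT (0.116%), the E-box CAGGTG (17.2%) or the direct repeats of AGGTCA bound by nuclear receptors, with a spacing of 1 base as known for PPAR (0.0335%) or of 4 bases as known for LXR (0.0152%). No searched motif overlapped another in these windows.

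**Figure D2:**
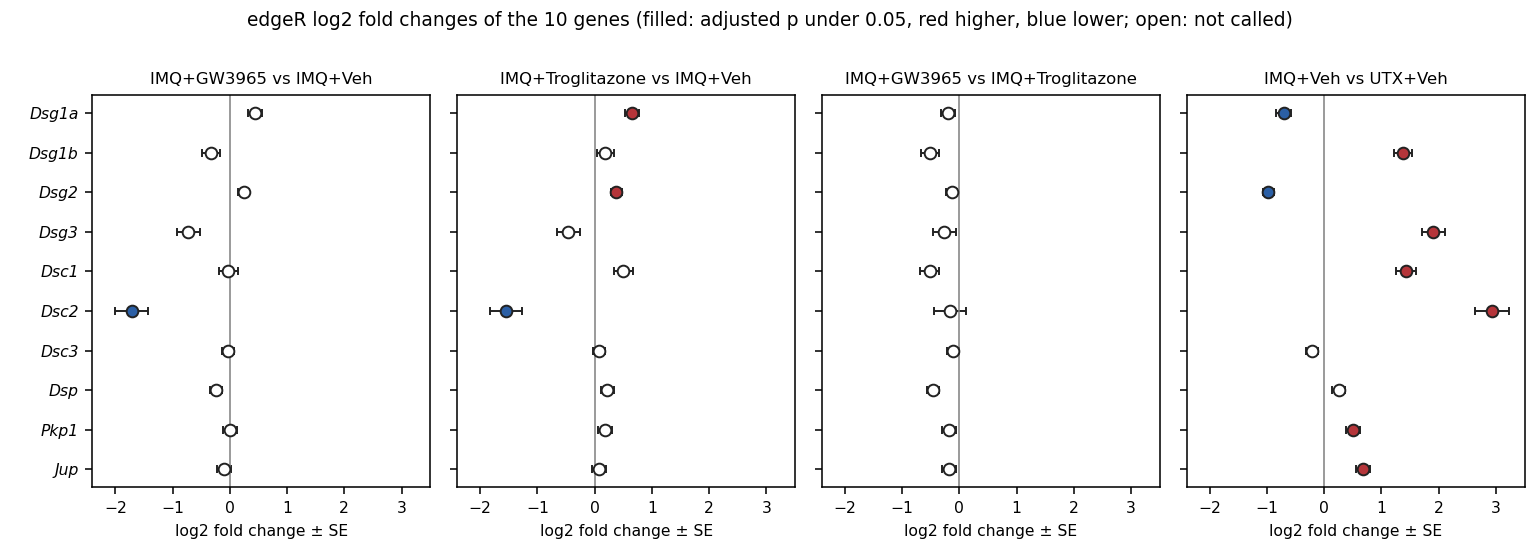
log2 fold change ± SE (x axis, edgeR) of each of the 10 genes (y axis) in 4 comparisons; filled points passed an adjusted p of 0.05 (red higher, blue lower) and open points did not. In IMQ+Veh against UTX+Veh 8 points are filled, of which Pkp1 and Jup were not called on TPM, and Dsc2 is filled in all 3 comparisons that involve IMQ+Veh.

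The makeup of the cadherins differed between IMQ+Veh and UTX+Veh skin, while their sum overlapped. The 7 cadherins together came to 738 ± 58.7 CPM per kb in IMQ+Veh and 638 ± 63.9 CPM per kb in UTX+Veh, and the ranges overlapped. Dsg1a made up 23.1 to 25.4% of that sum in IMQ+Veh, against 45 to 45.8% in UTX+Veh. Dsc1 made up 21.9 to 26.3% in IMQ+Veh, against 10.3 to 11% in UTX+Veh. Both shares were apart between the groups, in opposite directions. Dsg3 took 9.71 to 14.8% in IMQ+Veh, against 3.51 to 3.79% in UTX+Veh. Dsc3 took 22.9 to 26.4% in IMQ+Veh, against 32.8 to 33.6% in UTX+Veh.

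Ratios of upper-layer to lower-layer cadherins moved in opposite directions in the 2 families. The log2 ratio of Dsg1a plus Dsg1b to Dsg3, per kb, was 1.67 ± 0.38 in IMQ+Veh and 3.81 ± 0.056 in UTX+Veh, 4.43-fold lower in IMQ+Veh. The log2 ratio of Dsc1 to Dsc2 plus Dsc3 was -0.073 ± 0.23 in IMQ+Veh and -1.65 ± 0.064 in UTX+Veh, 2.99-fold higher in IMQ+Veh. For both ratios the 3 libraries of one group lay wholly apart from the other, which gives p = 0.1 in a two-sided exact permutation test, the smallest that 3 against 3 libraries allow. Summed over both families, the upper-layer genes Dsg1a, Dsg1b and Dsc1 made up 61.7 ± 4.23% of the cadherins in IMQ+Veh and 61.9 ± 0.56% in UTX+Veh (exact permutation p = 1), whereas with Dsg1a left out the share in IMQ+Veh was 19.6 points above that in UTX+Veh. The log2 ratio of Pkp1 to Pkp3, a plakophilin found through all layers, was 0.38 ± 0.16 in IMQ+Veh and 1.02 ± 0.025 in UTX+Veh (exact permutation p = 0.1), with no overlap.

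**Figure D3:**
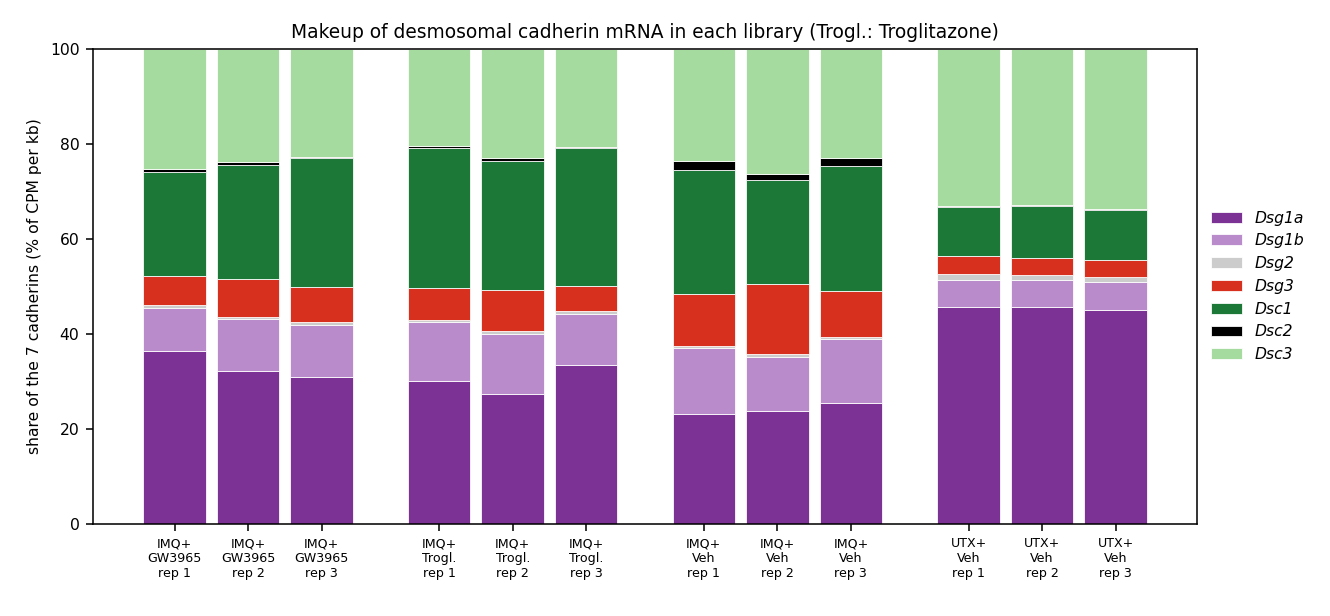
Share of each gene in the summed CPM per kb of the 7 desmosomal cadherins (y axis, percent), 1 stacked bar for each of the 12 libraries. Dsg1a (dark purple) fills 30.8 to 36.4% of the IMQ+GW3965 bars and 27.3 to 33.4% of the IMQ+Troglitazone bars, between the 23.1 to 25.4% of IMQ+Veh and the 45 to 45.8% of UTX+Veh.

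The 7 cadherin genes lie in a single cluster with Dsg1c and Dsg4 on mouse chromosome 18, over 643.592 kb from 19960930 to 20604521 (GENCODE M21, GRCm38). The desmocollins lie on the minus strand and the desmogleins on the plus strand. Neighbours in this cluster differed in direction in IMQ+Veh against UTX+Veh. Dsc2, which rose, lies between Dsc3, which was not called, and Dsc1, which rose. Dsg1a, which fell, lies between Dsg1c, which fell, and Dsg1b, which rose. Dsg1c had 1.68 ± 0.595 CPM in IMQ+Veh against 5.77 ± 1.6 CPM in UTX+Veh (edgeR, adjusted p = 0.00139). It shares 17.9% of its 75-base stretches with Dsg1a and 15.6% with Dsg1b. Its low counts therefore depend on RSEM's division of reads among these genes. At the far end, Dsg3 rose and its neighbour Dsg2 fell. Dsg4, the desmoglein of the hair shaft, was too low to test and had 0 counts in all 3 IMQ+Veh libraries. The plaque genes lie elsewhere, Dsp at chr13:38151294-38198577 on the plus strand, Pkp1 at chr1:135871395-135919207 and Jup at chr11:100368958-100397763, both on the minus strand, and all 10 are annotated as protein-coding genes.

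**Figure D4:**
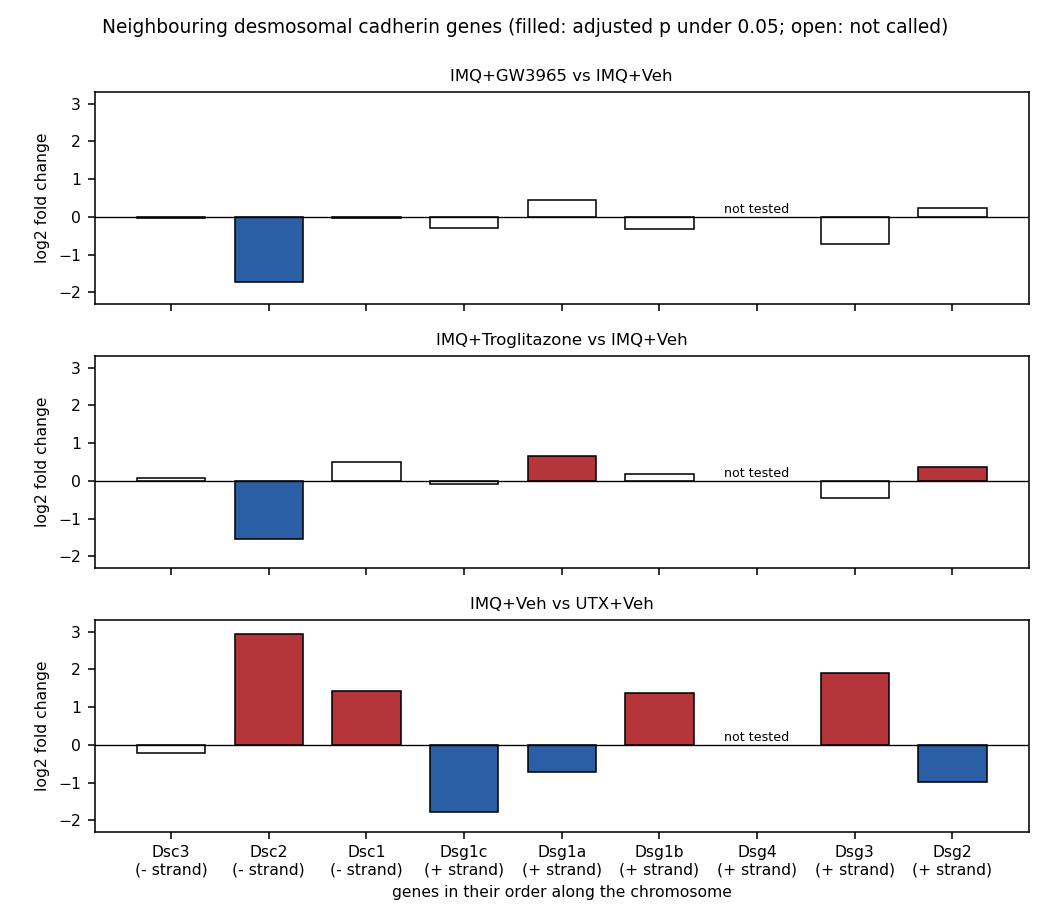
edgeR log2 fold change (y axis) of the 9 cadherin genes of the cluster in their order along the chromosome (x axis), for IMQ+GW3965 and IMQ+Troglitazone against IMQ+Veh and for IMQ+Veh against UTX+Veh; filled bars passed an adjusted p of 0.05 (red higher, blue lower), open bars did not, and Dsg4 was not tested. In IMQ+Veh against UTX+Veh, red and blue bars stand side by side along the cluster, from 2.93 for Dsc2 to -1.78 for Dsg1c. The low counts of Dsg1c depend on RSEM's division of reads among the Dsg1 genes.

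The LXR agonist was set against vehicle in imiquimod skin. Dsc2 was the only 1 of the 10 genes called, and it fell, where 6.59% of all genes tested were called, 3.71% higher and 2.88% lower. Dsg3 and Dsg1a came close to the threshold without passing it. The groups did not overlap for 4 of the 10 genes, against 24.8% of all genes tested. The members' median log2 fold change was -0.07, against -0.01 over all genes tested.

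Dsc2 had 13.3, 22 and 12.5 CPM in IMQ+GW3965, against 66.5, 37.3 and 54.1 CPM in IMQ+Veh. It fell 3.29-fold (log2 -1.72 ± 0.28, edgeR, adjusted p = 0.0101), and every IMQ+GW3965 library lay below every IMQ+Veh library. The call was lost without IMQ+GW3965 replicate 1 (adjusted p = 0.0645) and in a fit of the 2 groups alone (adjusted p = 0.0547). Dsg3 had 233, 376 and 338 CPM in IMQ+GW3965, against 531, 613 and 419 CPM in IMQ+Veh. The groups did not overlap, but the log2 fold change of -0.72 ± 0.20 missed the threshold (edgeR, adjusted p = 0.0502), while it was called without IMQ+Veh replicate 3 (adjusted p = 0.0117) and in 10 of 19 alternatives in all. Dsg1a had 1284, 1388 and 1305 CPM in IMQ+GW3965, against 1019.9, 898 and 1003 CPM in IMQ+Veh, again without overlap, with a log2 fold change of 0.45 ± 0.12 (edgeR, adjusted p = 0.0535; 0.0336 without IMQ+Veh replicate 3). In Dsg2, the fourth gene without overlap, IMQ+GW3965 had 22.1, 23.4 and 23.7 CPM, against 18.8, 21.2 and 18.4 CPM in IMQ+Veh (edgeR, adjusted p = 0.135). The other 6 genes overlapped and had adjusted p-values of 0.194 to 0.99 in edgeR, with Dsc1 at -0.025 ± 0.16 and Dsc3 at -0.037 ± 0.10 on the log2 scale.

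Troglitazone changed 3 of the 10 genes against IMQ+Veh, where 9.34% of all genes tested were called, 4.69% higher and 4.65% lower. Dsg1a and Dsg2, the desmogleins that fell in IMQ+Veh against UTX+Veh, rose, and Dsc2 fell. These comparisons share the IMQ+Veh libraries. The groups did not overlap for 5 of the 10 genes, against 25.8% of all genes tested, and the members' median log2 fold change was 0.18, against -0.02 over all genes tested.

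Dsg1a had 1443, 1339.8 and 1789 CPM in IMQ+Troglitazone, against 1019.9, 898 and 1003 CPM in IMQ+Veh. IMQ+Troglitazone replicate 3 was the highest, and no library of the groups overlapped. Dsg1a rose 1.57-fold (log2 0.65 ± 0.12, edgeR, adjusted p = 0.0137), and the call was lost without IMQ+Troglitazone replicate 3 (adjusted p = 0.0538) or IMQ+Veh replicate 1 (0.053). Dsc2 had 20.3, 22 and 11.6 CPM in IMQ+Troglitazone, against 66.5, 37.3 and 54.1 CPM in IMQ+Veh. It fell 2.93-fold (log2 -1.55 ± 0.28, edgeR, adjusted p = 0.0126), a call lost without IMQ+Veh replicate 1 (adjusted p = 0.053). Dsg2 had 22.4, 27.3 and 26.3 CPM in IMQ+Troglitazone, against 18.8, 21.2 and 18.4 CPM in IMQ+Veh. The groups were close but did not overlap, and the rise was 1.3-fold (log2 0.38 ± 0.10, edgeR, adjusted p = 0.0342). The Dsg2 call was lost in 7 of 19 alternatives, among them those without IMQ+Veh replicate 1 (adjusted p = 0.133), IMQ+Troglitazone replicate 2 (0.0854) and replicate 3 (0.119). All 3 calls were lost in a fit of the 2 groups alone, in which no gene of the whole table was called by edgeR, although 4 of the 10 genes and 3279 of all genes had an unadjusted p under 0.05.

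Dsc1 had 951, 898 and 1044 CPM in IMQ+Troglitazone, against 783, 564 and 703 CPM in IMQ+Veh. The groups stood apart, and the log2 fold change of 0.50 ± 0.16 was not called (edgeR, adjusted p = 0.0769). Dsg3 averaged 379.6 ± 81.6 CPM in IMQ+Troglitazone and 521 ± 97.1 CPM in IMQ+Veh, with overlap, and was not called (edgeR, adjusted p = 0.154), but it was called lower without IMQ+Veh replicate 3 (adjusted p = 0.0471). On the TPM scale, where the median of all genes was 0.19, 7 of the 10 genes were called higher and Dsc2 lower. On that scale 2319 of all genes were called in this comparison, and 90.4% of these were higher.

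With either drug the ratio of Dsg1a plus Dsg1b to Dsg3 lay between IMQ+Veh and UTX+Veh, and the share of upper-layer cadherins lay above both. The distance of the ratio from UTX+Veh, and the share in IMQ+GW3965 against IMQ+Veh, depended on Dsg1a. The log2 ratio of Dsg1a plus Dsg1b to Dsg3 was 2.62 ± 0.26 in IMQ+GW3965 and 2.63 ± 0.42 in IMQ+Troglitazone, against 1.67 ± 0.38 in IMQ+Veh, 1.94-fold and 1.95-fold higher. The exact permutation p was 0.1 for each, the smallest possible in this unpaired test. Both ratios stayed below the 3.81 ± 0.056 of UTX+Veh in every library. With Dsg1b alone, whose reads are divided from those of Dsg1a by estimate, the log2 ratio to Dsg3 in IMQ+Troglitazone exceeded that in UTX+Veh by 0.14 (exact permutation p = 0.4), and in IMQ+GW3965 it was lower by 0.12 (exact permutation p = 0.2). Upper-layer cadherins made up 67.9 ± 1.1% of the cadherin sum in IMQ+GW3965 and 70.8 ± 3.17% in IMQ+Troglitazone, above the 61.7 ± 4.23% of IMQ+Veh and the 61.9 ± 0.56% of UTX+Veh in every library (exact permutation p = 0.1 for each of the 4 comparisons). With Dsg1a left out, the share in IMQ+GW3965 was 2.23 points above that in IMQ+Veh (exact permutation p = 0.7). The log2 ratio of Dsc1 to Dsc2 plus Dsc3 was -0.0076 ± 0.24 in IMQ+GW3965, against -0.073 ± 0.23 in IMQ+Veh (exact permutation p = 0.8), and 0.40 ± 0.16 in IMQ+Troglitazone (exact permutation p = 0.1 against IMQ+Veh).

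The 2 drugs were then compared with each other. The compounds are not structural analogs and their doses differ. None of the 10 genes was called by edgeR, where 1.86% of all genes tested were. In edgeR 3 of the 10 genes and 2745 of the 17130 genes tested had an unadjusted p under 0.05. DESeq2 called 3 of the 10 genes and 942 of all genes. Those 3 genes, Dsp, Dsc1 and Dsg1b, were lower in all IMQ+GW3965 libraries than in any IMQ+Troglitazone library, where 25.3% of all genes tested had no overlap and 11.2% were lower in that way. Dsp had 3344, 4036 and 3596 CPM in IMQ+GW3965, against 5011, 5144 and 4968 CPM in IMQ+Troglitazone, a log2 fold change of -0.46 ± 0.11 (edgeR, adjusted p = 0.0554). These libraries stood well apart. Dsg1b had 220.2, 321 and 322 CPM in IMQ+GW3965, against 405, 429 and 398 CPM in IMQ+Troglitazone. Dsc1 had 525, 705 and 785 CPM in IMQ+GW3965, against 951, 898 and 1044 CPM in IMQ+Troglitazone. In both genes the IMQ+GW3965 libraries were all lower, with replicate 1 the lowest, and Dsc1 was at -0.52 ± 0.16 (edgeR, adjusted p = 0.133) and Dsg1b at -0.51 ± 0.15 on the log2 scale (0.114). Dsc2, which fell with either drug against IMQ+Veh, averaged 16 ± 5.28 CPM in IMQ+GW3965 and 18 ± 5.59 CPM in IMQ+Troglitazone, a log2 difference of -0.17 ± 0.28.

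Against UTX+Veh, most desmosome genes still differed under either drug. In IMQ+GW3965, 6 rose and 1 fell, where 50.2% of all genes tested were called, 28.7% higher and 21.5% lower. In IMQ+Troglitazone, 7 rose and 1 fell, where 45.3% of all genes tested were called, 26.5% higher and 18.8% lower. The groups did not overlap for 9 of the 10 genes with either drug, against 66.6% of all genes tested for IMQ+GW3965 and 62.5% for IMQ+Troglitazone. The 6 genes that rose in both were Dsg1b, Dsg3, Dsc1, Dsc2, Pkp1 and Jup by TMM scaling, whereas on TPM Pkp1 was at -0.12, Jup at -0.037 and Dsc2 at 0.46 in IMQ+GW3965 against UTX+Veh, none of them called. The gene that fell in both was Dsg2. These comparisons share the UTX+Veh libraries.

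Dsp was the gene that passed the test in IMQ+Troglitazone alone. It had 5011, 5144 and 4968 CPM in IMQ+Troglitazone, against 3584, 3811 and 3474 CPM in UTX+Veh, and rose by 0.48 ± 0.11 on the log2 scale (edgeR, adjusted p = 0.00472), a call that was lost on TPM. IMQ+GW3965 had 3344, 4036 and 3596 CPM of Dsp, which overlapped with UTX+Veh, whereas on TPM Dsp was at -0.54 in IMQ+GW3965 against UTX+Veh and called lower (limma, adjusted p = 0.0011). The median of all genes against UTX+Veh on the TPM scale was -0.44 in IMQ+GW3965 and -0.20 in IMQ+Troglitazone. Dsc1 reached its highest mean in IMQ+Troglitazone, 964 ± 74.2 CPM against 254 ± 35.7 CPM in UTX+Veh, 3.8-fold (log2 1.93 ± 0.17, edgeR, adjusted p = 1.17e-05). Dsc2 rose 2.31-fold in IMQ+GW3965 and 2.59-fold in IMQ+Troglitazone against UTX+Veh (edgeR, adjusted p = 0.00476 and 0.00283). Jup had 1426, 1776 and 1446 CPM in IMQ+GW3965 and 1822, 1782 and 1653 CPM in IMQ+Troglitazone, all above UTX+Veh. Pkp1 had 1789.9, 2199 and 1780.3 CPM in IMQ+GW3965 and 2194, 2103 and 2244 CPM in IMQ+Troglitazone, likewise all above UTX+Veh on this scale. Dsc3 was not called in IMQ+GW3965 (log2 -0.26 ± 0.10, edgeR, adjusted p = 0.0568), but was called lower in 8 of 19 alternatives, among them without IMQ+GW3965 replicate 2 (adjusted p = 0.038) and on TPM (log2 -0.86). In IMQ+Troglitazone Dsc3 was at log2 -0.15 ± 0.10 (edgeR, adjusted p = 0.258), and on TPM at -0.40 and called lower. Dsg1a was not called with either drug by TMM scaling, at log2 -0.27 ± 0.12 in IMQ+GW3965 and -0.064 ± 0.12 in IMQ+Troglitazone against UTX+Veh (edgeR, adjusted p = 0.094 and 0.692). On TPM it was called lower with both, at -0.85 in IMQ+GW3965 and -0.35 in IMQ+Troglitazone (limma, adjusted p = 0.00023 and 0.0434), and in IMQ+GW3965 also with upper-quartile scaling, DESeq2 and a fit of the 2 groups alone.

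Other genes of the desmosome and of neighbouring junctions gave a mixed picture in IMQ+Veh against UTX+Veh, where 61.9% of all genes tested were called, 33.0% higher and 28.9% lower. Of 8 other desmosome genes tested, 5 rose and 2 fell (median log2 0.61), but on TPM 1 was higher and 3 were lower (median 0.065). Pkp3 rose to 659 ± 103 CPM in IMQ+Veh, against 323 ± 21.1 CPM in UTX+Veh (edgeR, adjusted p = 6.83e-05). Cdsn, the corneodesmosin of the horny layer, rose 1.71-fold, and Perp, a membrane protein of desmosomes, 1.55-fold (edgeR, adjusted p = 0.000377 and 0.000965), neither of them called on TPM. Among 9 adherens junction genes, 7 rose and 1 fell (median log2 0.37), but on TPM 2 were higher and 2 lower (median -0.18). P-cadherin (Cdh3), a basal cell cadherin, rose to 135 ± 30.6 CPM in IMQ+Veh, against 35.3 ± 2.96 CPM in UTX+Veh (edgeR, adjusted p = 1.01e-05) and was called higher on TPM too, whereas E-cadherin (Cdh1) was 1.29-fold higher by TMM and at -0.18 on the log2 scale of TPM, not called. Hemidesmosome genes, which anchor basal cells to the basement membrane, went mostly the other way, with 1 higher and 5 lower of 8 (median log2 -0.78) and on TPM 0 higher and 7 lower (median -1.22). Dst, which encodes the hemidesmosomal plaque protein BPAG1, fell to 339.9 ± 47.1 CPM in IMQ+Veh, against 1112 ± 78.6 CPM in UTX+Veh (edgeR, adjusted p = 1.91e-05). Col17a1, the transmembrane collagen of hemidesmosomes, fell 2.46-fold (edgeR, adjusted p = 7.56e-06), and Lamb3, a chain of laminin 332, 1.78-fold (7.94e-05).

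Regulators of desmosome genes and of cadherin shedding were also counted. Of 16 tested, 6 rose and 3 fell in IMQ+Veh against UTX+Veh, a share near the 61.9% of all genes tested (median log2 0.19), but on TPM 3 were higher and 9 lower (median -0.35). The 4 named next were called in the same direction on both scales. The grainyhead-like factor Grhl3 rose 2.94-fold and the differentiation factor Zfp750 1.95-fold (edgeR, adjusted p = 3.13e-05 and 1.98e-05). Tmem79, a barrier gene of the granular layer, rose 2.52-fold and the protein kinase C gene Prkca fell 1.99-fold (edgeR, adjusted p = 8.96e-06 and 9.34e-05). Grhl1, a regulator of Dsg1 in mouse skin, had 283 ± 31.8 CPM in IMQ+Veh and 255 ± 17.5 CPM in UTX+Veh and was not called (edgeR, adjusted p = 0.2), but was called lower on TPM.

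With the drugs fewer of these genes passed the test, as did fewer of all genes tested, 6.59% in IMQ+GW3965 and 9.34% in IMQ+Troglitazone against IMQ+Veh. In IMQ+GW3965 against IMQ+Veh, Cdsn and Col17a1 rose, and Cdh3, Nectin1 and Zfp750 fell, with the remaining 36 of 41 tested not called, and on TPM Cdh3 and Col17a1 were not called either. Cdh3 fell to 81.6 ± 16.8 CPM in IMQ+GW3965, against 135 ± 30.6 CPM in IMQ+Veh (edgeR, adjusted p = 0.0418). In IMQ+Troglitazone against IMQ+Veh, Ppl, Cdsn, Col17a1, Casz1 and Prkca rose, with the remaining 36 of 41 not called. On TPM the median of all genes was 0.19, and 90.4% of all genes called in this comparison were higher. On that scale 2 other desmosome genes, 2 hemidesmosome genes and 6 regulators were called higher. Cdsn rose to 1656 ± 160.0 CPM in IMQ+Troglitazone, against 1074 ± 188 CPM in IMQ+Veh (edgeR, adjusted p = 0.0179). The plaque gene Ppl (periplakin) rose 1.42-fold in IMQ+Troglitazone (edgeR, adjusted p = 0.0138).

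**Figure D5:**
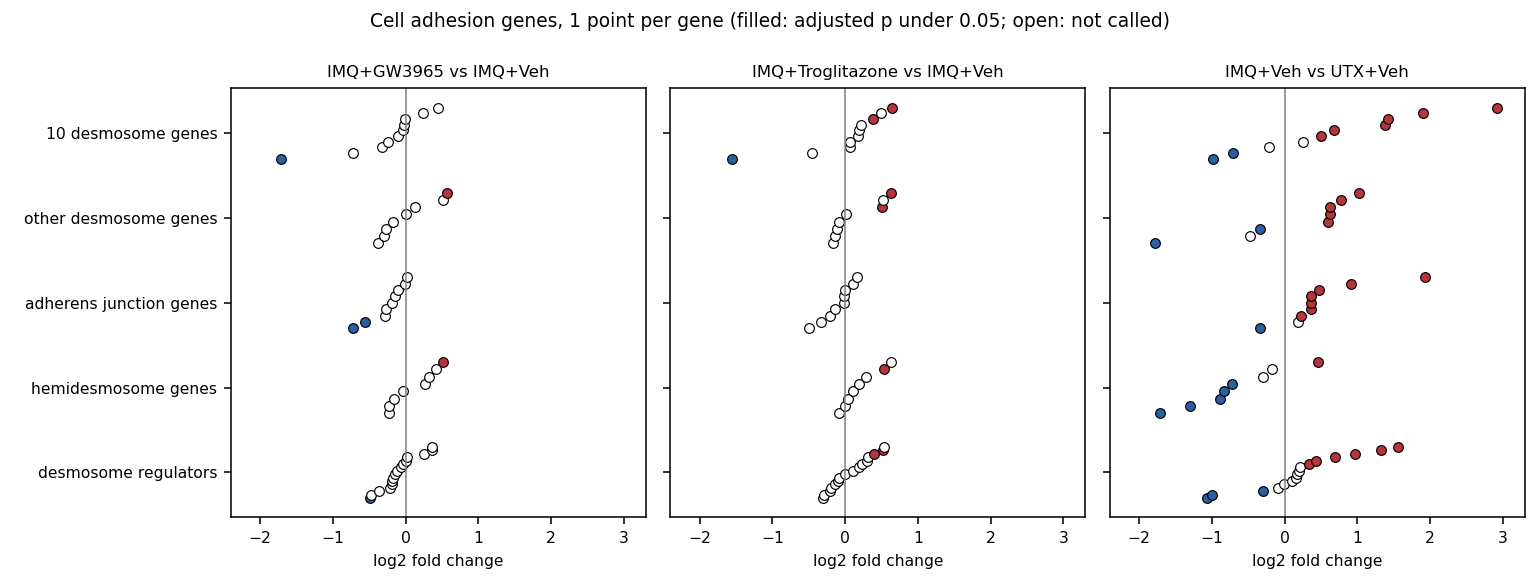
edgeR log2 fold change (x axis), 1 point per gene, of the 10 desmosome genes and 4 lists of adhesion genes and their regulators (rows), for IMQ+GW3965 and IMQ+Troglitazone against IMQ+Veh and for IMQ+Veh against UTX+Veh; filled points passed an adjusted p of 0.05 (red higher, blue lower). In IMQ+Veh against UTX+Veh, 7 of 9 adherens junction genes were called higher (2 of 9 on TPM) and 5 of 8 hemidesmosome genes lower (7 of 8 on TPM).

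Markers of keratinocyte layers and of other cells also differed between the groups. In IMQ+Veh against UTX+Veh, with 61.9% of all genes tested called, 4 of 8 basal keratinocyte markers rose and 2 fell (2 and 4 on TPM), 9 of 11 suprabasal markers rose (7 on TPM), and all 4 activated keratinocyte markers (Krt6a, Krt6b, Krt16 and Krt17) rose. The summed level of the suprabasal list was 32761 to 50592 CPM in IMQ+Veh, against 15295 to 18101 CPM in UTX+Veh, and that of the basal list was 23473 to 31306 CPM in IMQ+Veh, against 11474 to 12865 CPM in UTX+Veh. Both sums were apart between these groups. All 8 skeletal muscle markers fell, with a sum of 935 to 4336 CPM in IMQ+Veh, against 9281 to 10822 CPM in UTX+Veh. All 7 neutrophil markers tested rose, with a sum of 5727 to 10076 CPM in IMQ+Veh, against 7.86 to 23.2 CPM in UTX+Veh, where Fpr1 was at 0. Of 7 cartilage markers 6 fell, with a sum of 186 to 619 CPM in IMQ+Veh, against 1172 to 1738 CPM in UTX+Veh, and 3 of 7 adipocyte markers fell, with a sum of 127 to 568 CPM in IMQ+Veh, against 602 to 1018 CPM in UTX+Veh. Of 7 macrophage markers 6 rose, with a sum of 376 to 875 CPM in IMQ+Veh, against 243 to 338 CPM in UTX+Veh. The activated keratinocyte, muscle, neutrophil and hair follicle sums were likewise apart, and the sebaceous gland, fibroblast, endothelial and Langerhans and dendritic cell sums overlapped. The part of these shifts in the desmosome values was not tested.

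Marker sums also differed between the drug groups and IMQ+Veh. The activated keratinocyte sum was 6606 to 10868 CPM in IMQ+GW3965 and 3895 to 11348 CPM in IMQ+Troglitazone, against 23132 to 31307 CPM in IMQ+Veh. The neutrophil sum was 267 to 2015 CPM in IMQ+GW3965 and 379 to 1957 CPM in IMQ+Troglitazone, against 5727 to 10076 CPM in IMQ+Veh. Each sum was lower in all drug libraries than in any IMQ+Veh library, and its part in the Dsc2 values was not tested. Among the IMQ+Veh libraries, replicate 2 had the lowest Dsc2 level and the highest neutrophil sum. Over the 12 libraries, the named genes of at least 10 CPM most like Dsc2 in log2 level were Homer3, Ccnyl1 and the neutrophil marker Csf3r. Their Pearson's r was 0.9774, 0.9685 and 0.9683, given as a description only. The suprabasal sum was 45972 to 62078 CPM in IMQ+GW3965 and 43858 to 54640.5 CPM in IMQ+Troglitazone, which overlapped with IMQ+Veh. The skeletal muscle sum was 4989 to 7187 CPM in IMQ+GW3965, above every IMQ+Veh library, and 3316 to 5052 CPM in IMQ+Troglitazone, and its part in the desmosome values was not tested. The sebaceous gland sum was 1087 to 1411 CPM in IMQ+GW3965, with 5 of 9 markers called higher, and 951 to 1142 CPM in IMQ+Troglitazone, with 3 of 9, against 356 to 1013 CPM in IMQ+Veh, which overlapped with IMQ+Troglitazone alone. In IMQ+Troglitazone the basal keratinocyte sum, 16279 to 21359 CPM, and the Langerhans and dendritic cell sum, 229.5 to 253 CPM, were below every IMQ+Veh library. The fibroblast sum varied within IMQ+Veh, from 1877 CPM in replicate 2 to 9251 CPM in replicate 3. The file names carry a lane field (1 or 9) that the labels do not explain, and both values occur in every group. IMQ+Veh had 1 library in field 1 and 2 in field 9, and each other group had 2 in field 1 and 1 in field 9. The field is thus partly tied to IMQ+Veh, and with 1 or 2 libraries each the within-field differences carry no test. Within lane fields 1 and 9, the log2 difference between IMQ+Veh and UTX+Veh was 2.28 and 2.94 for Dsc2, 2.08 and 1.86 for Dsg3, and -0.88 and -0.54 for Dsg1a, with all 10 genes in the same direction in both. For Dsc2 it was -1.46 and -1.40 with GW3965 and -1.23 and -1.41 with troglitazone against IMQ+Veh, and for Dsg1a with troglitazone 0.84 and 0.41. For Dsg3 it was -1.12 and -0.33 with GW3965 and -0.88 and -0.00063 with troglitazone, and for Dsg2 with troglitazone 0.19 and 0.53.

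Among named genes with a mean of at least 10 CPM, those whose log2 levels ran most like a desmosome gene over the 12 libraries were found by Pearson's r, given as a description of libraries that fall into groups. For Dsg3 they were Cdh3 (r = 0.996), Zdhhc21 and Gk. For Dsc1 they were Lypd5 (r = 0.988), Abca12, the lipid transporter of lamellar granules, and Cyfip1. For Dsg1a they were Rora (r = 0.967), a nuclear receptor, Frmd6 and Cd109. For Dsp they were Mast4 (r = 0.953), Sec16a and Lmtk2.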

How the data were processed

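Poly(A) RNA of ear skin was sequenced in 12 libraries from a stranded TruSeq mRNA kit after mirVana extraction and DNase treatment, per the labels' protocols. The authors trimmed reads with Trim Galore, aligned them with STAR 2.7.3a and quantified them with RSEM 1.3.3 on GRCm38/mm10, per the submitters' processing notes. Sources used here give no annotation release, strand setting or read length. The deposited tables hold RSEM's expected counts, which need not be whole because reads that fit several genes are divided by estimate, with each gene's effective length. The deposited TPM values, scaled by the authors' RSEM run to a fixed sum per library, were used as an alternative only.

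Expected counts were rounded, filtered with filterByExpr by group, scaled by TMM and fitted with edgeR 4.0.16 (glmQLFit and glmQLFTest, R 4.3.3) over all 12 libraries with group as the only term (8 residual degrees of freedom, common dispersion 0.0306), and p-values were adjusted by Benjamini-Hochberg over 17130 genes. Of 55416 identifiers, 52135 were matched to GENCODE M21. CPM per kb divides TMM-scaled CPM by RSEM's effective length in that library, and ratios of genes were compared by exact two-sided permutation tests. Alternatives were scaling by RLE or upper quartiles, the tools DESeq2 1.42.0 and limma-voom (limma 3.58.1), 2 other filters, a fit of 2 groups, replicate and lane terms, each library left out, and TPM with limma on log2(TPM + 1), the last added after seeing the data. Libraries of a group were never closer than a chi-square per degree of freedom of 8.34, so none was counted as a copy. Replicate numbers were taken as pairs where the deviations of all 3 same-numbered pairs correlated above 0.1. This held for IMQ+Troglitazone and IMQ+Veh (0.138, 0.315 and 0.169) and not for IMQ+Veh and UTX+Veh (0.0869, 0.318 and 0.439) or other pairs of groups. The replicate block changed no call of the 10 genes in IMQ+Troglitazone against IMQ+Veh. The main fit and the permutation tests of ratios leave these pairs out, and a paired permutation test of 3 pairs can give no p below 0.25. On simulated data for IMQ+GW3965 against IMQ+Veh, 187 of 200 changed genes were recovered with 8 false calls among 16702 genes. The simulation gave every gene and library the same dispersion of 0.03 and held no imiquimod effect, so it does not measure the power of the real comparison.

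The 10 genes and all lists were chosen with earlier results of these data known. The genes named from each adhesion and regulator list were up to 4 with the smallest adjusted p below 0.05 in each of the first 3 comparisons, and Cdh1 and Grhl1 were named after their values were seen. A further gene of these lists is not reported here. Some genes of the adhesion and regulator lists, Cdh3, Col17a1 and Itga6 among them, also stand in the cell type lists. The list symbols Znf750 and Krt85 were not matched. RefSeq promoter sequences were matched by symbol. That of Pkp1 is not shown.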

Additional observations from a re-analysis of the deposited data

How the results depend on the processing

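Across 19 alternatives, the count of the 10 genes called kept within 1.5 times its main value in IMQ+Veh against UTX+Veh (8 to 10) and in both comparisons of a drug with UTX+Veh. In IMQ+GW3965 against IMQ+Veh, 1 gene was called, against 0 in a fit of the 2 groups. In that fit 4 of the 10 genes and 3092 of all genes had an unadjusted p under 0.05 (edgeR). The count was 2 with upper-quartile scaling (1142 of all genes called), the filter of at least 10 counts (1197) and the replicate block (1426). The block added Dsg3 (edgeR, adjusted p = 0.0241). It was also 2 with the block and lane (885 of all genes), on TPM (529), or with IMQ+GW3965 3 and IMQ+Veh 3 both left out (3041). The count was 3 with limma-voom (1508) or no filter (1480), and 4 with DESeq2 (2222), against 1129 of all genes in the main fit. With 1 library left out it was 0 to 3 (105 to 3645 of all genes). In IMQ+Troglitazone against IMQ+Veh, 3 were called, against 0 in a fit of the 2 groups, 8 on TPM (2319 of all genes), and 0 to 4 with 1 library left out (162 to 4460 of all genes). In IMQ+GW3965 against IMQ+Troglitazone, 0 were called, against 1 with upper-quartile scaling (403 of all genes), limma-voom (386), without the feature ENSMUSG00000119584 (301) or without IMQ+Veh replicate 3 (692). It was 3 with DESeq2 (942 of all genes) and 7 on TPM (1452 of all genes). The block made no other change to these counts beyond 1.5 times, but in this last comparison the genes called over the whole table were 131 with the replicate block against 319. By the requirement that all 3 correlations exceed 0.1, numbers were taken as pairs for IMQ+Troglitazone and IMQ+Veh alone.

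Reversals concerned values near 0, TPM, or Dsg1b used alone. On TPM, Dsp was -0.26 and Pkp1 -0.058 in IMQ+Veh against UTX+Veh, and in IMQ+GW3965 against UTX+Veh Dsp was -0.54 and called lower, Pkp1 -0.12 and Jup -0.037. Pkp1 in IMQ+GW3965 against IMQ+Veh turned to 0.011 with upper-quartile scaling and in the fit of 2 groups, 0.014 with no filter, 0.0024 with block and lane, and 0.0012 without that feature. Dsp in IMQ+GW3965 against UTX+Veh turned to -0.016 with RLE or DESeq2, -0.093 with upper quartiles, -0.022 in the fit of 2 groups and -0.017 without the feature. Jup in IMQ+Troglitazone against IMQ+Veh was -0.011 with both replicates 3 left out. With Dsg1b alone, the upper-layer share in IMQ+Veh exceeded that in UTX+Veh by 19.6 points, and the log2 ratio to Dsg3 in IMQ+Troglitazone exceeded that in UTX+Veh by 0.14.

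With 1 library left out, log2 values crossed 0 in IMQ+GW3965 against IMQ+Veh for Dsc1 (-0.14 to 0.13), Dsc3 (-0.10 to 0.0090), Pkp1 (-0.11 to 0.078) and the ratio of Dsc1 to Dsc2 plus Dsc3 (-0.068 to 0.18), in IMQ+Troglitazone against IMQ+Veh for Jup (-0.025 to 0.15), and in IMQ+GW3965 against IMQ+Troglitazone for Dsc2 (-0.49 to 0.0066), the Dsg1 to Dsg3 ratio (-0.23 to 0.19) and the Dsg2 to Dsg3 ratio (-0.053 to 0.26). Against UTX+Veh they did so for Dsp in IMQ+GW3965 (-0.11 to 0.082), Dsg1a (-0.19 to 0.029) and the Pkp1 to Pkp3 ratio (-0.22 to 0.011) in IMQ+Troglitazone, and the upper-layer share in IMQ+Veh (-1.82 to 2.25 points). The causes of these changes were not tested, and the TPM alternative differs from the main fit both in scale and in the test used.

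Over the whole table, IMQ+GW3965 against IMQ+Veh gave 1129 called genes, but 2222 with DESeq2, 102 in the fit of 2 groups, 549 with lane, 529 on TPM, 3041 with both replicates 3 left out and 105 (without IMQ+GW3965 replicate 1) to 3645 (without IMQ+Veh replicate 3) with 1 library left out. IMQ+Troglitazone against IMQ+Veh gave 1600, but 2590 with DESeq2, 0 in the fit of 2 groups (3279 at an unadjusted p under 0.05), 1009 with lane, 991 with block and lane, 4166 with both left out and 162 (without IMQ+Veh replicate 1) to 4460 (without IMQ+Veh replicate 3) with 1 left out. IMQ+GW3965 against IMQ+Troglitazone gave 319, but 942 with DESeq2, 140 with no filter, 9 in the fit of 2 groups, 26 with block and lane, 0 with both left out (2623 at an unadjusted p under 0.05), 1452 on TPM, 0 to 73 with 1 library of these 2 groups left out, and 74, 356 and 692 without IMQ+Veh replicates 1, 2 and 3. The share of called genes that were higher was 53.3% in IMQ+Veh against UTX+Veh, 45.0% with upper quartiles and 19.8% on TPM. It was 57.2%, 47.2% and 13.6% in IMQ+GW3965 against UTX+Veh and 58.5%, 44.7% and 28.1% in IMQ+Troglitazone against UTX+Veh. In the drug comparisons it was 56.2% and 44.0% on TPM for IMQ+GW3965, 50.2% and 90.4% for IMQ+Troglitazone against IMQ+Veh, and 58.0% and 0.758% for IMQ+GW3965 against IMQ+Troglitazone. With 3 libraries a group, changes of small size could be missed.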
